A study of Homo sapiens with 6 samples.

Results

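The genes of the Mediator complex were chosen by name: all protein-coding genes of the Gencode annotation (release 44, GRCh38) whose symbol is MED and a number, with or without a final L. This gave 30 of the 20046 protein-coding genes. Their peaks were all peaks of the deposited list whose summit lay in the gene body or up to 4000 bp past its 3′ end, which gave 376 of 200023 peaks. Of these, 284 reached −log10 q of 5, the cutoff that the study applied for its sample-specific peaks, and form the set described here. The study's further filter on stretches of genomic A was not applied. The other 92 were low, with a median of 6 reads at the summit.

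Mediator is the large protein assembly that carries signals from DNA-bound activators and enhancers to RNA polymerase II at promoters. Its head and middle modules touch the polymerase, MED14 runs through the complex as a scaffold, and the tail is where many activators bind. A separable kinase module, made of MED12, MED13, cyclin C and CDK8 or their paralogues MED12L, MED13L and CDK19, docks on the complex and controls its contact with the polymerase. MED26 is the subunit through which Mediator recruits elongation factors. The 3′ end of an mRNA is made by cleavage and polyadenylation downstream of a hexamer, usually AATAAA in the gene sequence. A site used within an intron gives a shortened transcript that lacks the downstream exons.

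Polyadenylated RNA of IMR-32, an established human neuroblastoma cell line, was sequenced from the 3′ end, with reads that start at the junction of transcript and poly(A) tail. There were 6 libraries, 2 each of cells given DMSO (the solvent, labelled with no time), 400 nM THZ531 for 2 h and 400 nM THZ531 for 6 h. The compound binds CDK12 and CDK13, kinases that act on elongating RNA polymerase II, and blocks them irreversibly. The authors called 1 list of peaks on merged reads, taken here to be those of all 6 libraries, so no value below compares DMSO with THZ531, and no peak has a replicate error or a depth per library.

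The height of a peak is given as reads at the summit, the number of reads extended to 100 bp that overlap it, recovered from the deposited fold enrichment and −log10 p. A start position counts once per strand, so the height is a count of distinct start positions. Tall peaks are compressed, and a low height can also stand for more sequenced reads than it shows. A read marks the end of a transcript, and the height therefore does not scale with the length of the transcript. Bounds in parentheses are exact 95% Poisson intervals for heights and 95% Wilson intervals for shares, and cover counting error only. Those for heights take the height as a plain count and do not allow for start positions counted once, in tall or low peaks. Each peak was put in 1 class, a transcript end (from 200 bp before to 600 bp after the end of any annotated transcript of the gene), an exon, an intron or another place. The list has no strand, and 43 of the 284 peaks lay inside another protein-coding or long noncoding RNA gene, in 17 of the 30 genes.

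Tall peaks within introns were found in some Mediator genes and not in others, and the sequences upstream of them are shown. In 7 of the 21 genes with an intronic peak, the tallest one was at least as tall as the tallest transcript-end peak. Of all protein-coding genes with both kinds of peak, 35.6% were like this, so the trait is not particular to Mediator genes. In each line the capitals mark the hexamer nearest to the 3′ edge of the peak, the side on which cleavage lies, out of the 12 polyadenylation hexamers listed by the study. Positions are GRCh38, the sequences are read 5′ to 3′ on the strand of the gene, and they come from the reference genome. The lines give the tallest intronic peak of a gene, and for MED13 also the other peaks of intron 2 that have a hexamer, which were chosen after their values were seen.
MED13 intron 2, 56 reads, chr17:62057917-62057946, minus strand: cctttaaataaaAATAAAagcaaacactgc
MED13 intron 2, 38 reads, chr17:62054803-62054832, minus strand: aaaggtaataaaAATAAAagatactaaatt
MED13 intron 2, 24 reads, chr17:62056891-62056920, minus strand: gtgttttcttccAATAAAtagtccataaaa
MED13L intron 2, 20 reads, chr12:116216024-116216053, minus strand: ttgagaggttgtAATAAAgagaagaggaag
MED27 intron 6, 19 reads, chr9:131881544-131881573, minus strand: aaactgctctaaAATAAAgttttaacaaag
MED17 intron 1, 28 reads, chr11:93785626-93785655, plus strand: ccaaatgaagaaAGTAAAacaaagtgttag
MED7 upstream of the canonical transcript, 47 reads, chr5:157143091-157143120, minus strand: gggtctataaaaAATAAAgcaataaggtgt
MED6 past the canonical end, 27 reads, chr14:70581735-70581764, minus strand: taaaattgctttTATAAAtattctattttt
MED21 past the canonical end, 26 reads, chr12:27033937-27033966, plus strand: aaagaaagaaatAATAAAggtaacagcaga
The hexamer began 63 bp before the 3′ edge in the tallest MED13 peak, 13 bp before it in the other lines of MED13 and in MED13L, and 19 bp before it in MED27. MED17 had the variant AGTAAA, 12 bp before the edge. The hexamer began 43 bp before the edge in MED7, 85 bp before it in MED6 and 8 bp before it in MED21. A second peak of MED13L intron 2 also had 20 reads and is not shown. It has the variant AAGAAA 10 bp before its edge, and up to 20 A among 25 bases downstream of it. The tallest intronic peak of MED15 had none of the 12 hexamers. In MED12L 3 intronic peaks shared the top height of 14 reads, and 1 of them, in intron 16, had a hexamer, AATAAA at 23 bp before its edge.

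All 30 Mediator genes had at least 1 peak at an annotated transcript end, against 64.0% of all protein-coding genes. The tallest transcript-end peak of a gene ranged from 14 to 56 reads with a median of 27.5 reads (quartiles 24 and 34), and over the 12834 detected genes, those with such a peak, the median was 25 reads (quartiles 17 and 36). Mediator genes thus lay around the middle of the detected genes, from MED16, with 14.6% of detected genes lower, to MED31, with 94.7% lower. By module the medians were 24 reads for the head (7 genes, 16 to 40 reads), 28.5 reads for MED27 to MED30 between head and tail (4 genes, 17 to 34 reads) and 34 reads for the middle (9 genes, 19 to 56 reads). The scaffold MED14 had 30 reads, the tail a median of 25 reads (5 genes, 14 to 31 reads) and the 4 large kinase-module genes a median of 27 reads (24 to 49 reads). These ranges overlapped between every pair of modules with several genes.

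**Figure D1:**
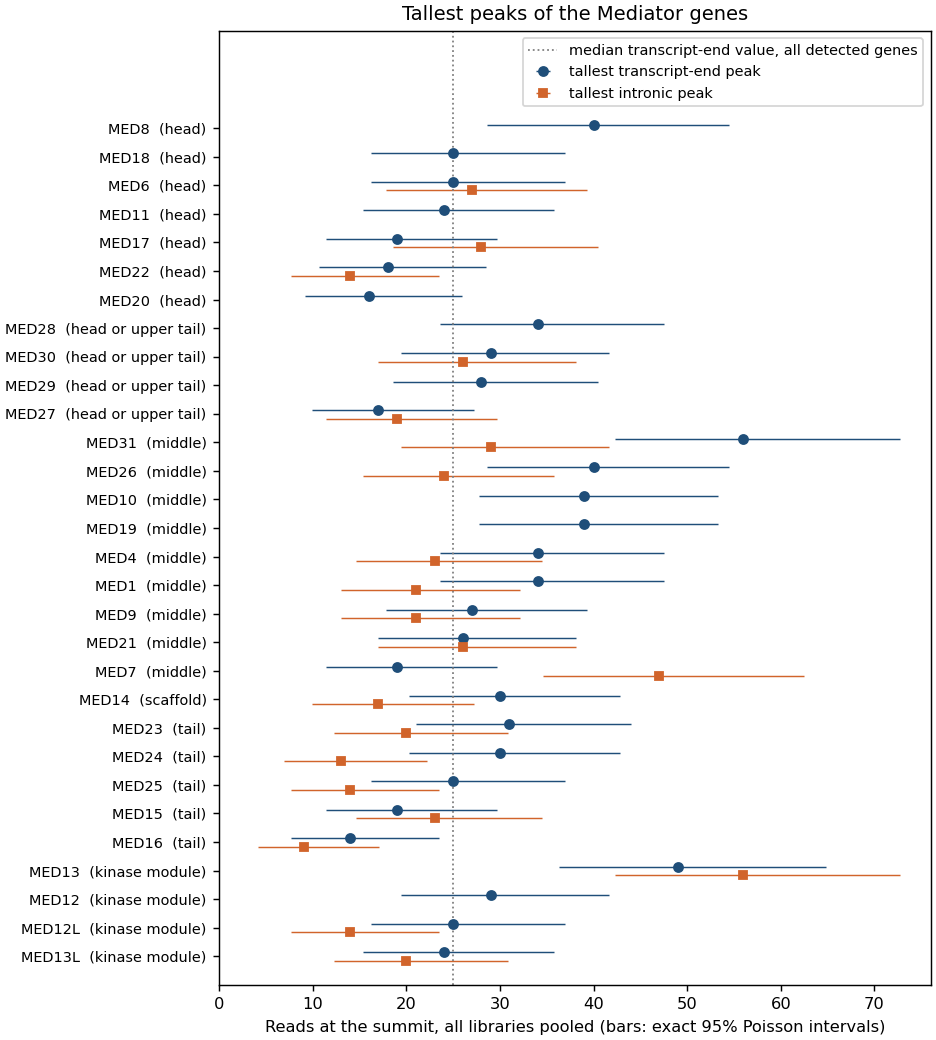
Reads at the summit (all libraries pooled) of the tallest transcript-end peak, in blue, and of the tallest intronic peak, in orange, for each Mediator gene, grouped by module; bars are exact 95% Poisson intervals and the dotted line is the median of 25 reads over all detected genes. MED31 and MED13 are the tallest at transcript ends, 9 genes have no intronic peak, and MED7 is the gene whose intronic interval lies wholly above its transcript-end interval.

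The tallest transcript-end peaks belonged to MED31, MED13, MED8 and MED26. MED31, a small middle-module subunit (ENSG00000108590.11, chromosome 17, 6643311 to 6651634), had 56 reads (42.3 to 72.7) at 316 bp past its canonical end and 48 reads at a second place in its 3′ UTR. Both of these peaks also lay in TXNDC17, which runs on the opposite strand, so the list cannot assign them to either gene. MED13, the subunit that tethers the kinase module (ENSG00000108510.10, chromosome 17, 61942605 to 62065278), had 49 reads (36.3 to 64.8) at its canonical end, more than 90.3% of detected genes. MED8, a head subunit, and MED26 had 40 reads each (28.6 to 54.5), although the MED26 peak lay within a noncoding gene on the opposite strand. At the other extreme stood MED16 in the tail with 14 reads (7.65 to 23.5), MED20 in the head with 16 reads (9.15 to 26.0) and MED27 with 17 reads (9.90 to 27.2). The 14 reads of MED16 were at an annotated end at −22584 bp relative to the canonical one, and its canonical end had 12 reads. The former is the end of a transcript tagged as incomplete, and the peak there had no polyadenylation hexamer. Without such transcripts its 14 reads counted as intronic. At heights this low, neighbours in this order do not differ beyond the counting error of a plain count. The intervals of MED31 and MED13, however, do not overlap those of MED16, MED20, MED27 and MED22 (18 reads, 10.7 to 28.4).

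Most Mediator genes ended in several places. At least 2 transcript-end peaks were found in 21 of the 30 genes (55.2% of all detected genes had them), and MED13L had 7, of 24, 21, 20, 19, 18, 11 and 10 reads. The tallest transcript-end peak was at or near the end of the canonical transcript in 19 genes, a count not made over all detected genes. It includes MED13L, whose peak of 24 reads had its 3′ edge 463 bp before that end. At the canonical end itself MED13L had 21 reads. When the end of the canonical transcript alone was used, 24 genes had a peak there (83.6% of all detected genes), and MED4, MED6, MED14, MED17, MED21 and MED22 had none. In MED14 the tallest peak, of 30 reads, was 1231 bp upstream of the canonical end, and in MED22 the peak of 18 reads was 2593 bp upstream of it. In MED6 the tallest peak of 25 reads lay at −9273 bp, at the end of a shorter transcript and after 63.1% of the coding bases. This peak had no polyadenylation hexamer and up to 19 A among 25 bases downstream. Priming on genomic A was not tested for it or for the MED13L peaks.

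Within the 3′ UTR of the canonical transcript, from the stop codon to 600 bp past its end, the 30 genes had 51 peaks. Several peaks were found in 13 of them (49.3% of all detected genes), 16 had 1, and MED25 had no summit in its UTR of 38 bp. MED25 did have a peak of 10 reads with its 3′ edge 2 bp before the canonical end and AATAAA 20 bp before that edge. Its summit lay upstream of the short UTR, so it was not counted. In 7 of those 13 genes the tallest peak was not the most distal one, and 53.8% of all detected genes with several UTR peaks were of this kind. MED28 (chromosome 4, 17614641 to 17634105), between head and tail, had the longest UTR, 10310 bp, with 8 peaks of 55, 25, 28, 32, 34, 22, 20 and 21 reads from the stop codon onwards. The tallest, 55 reads (41.4 to 71.6), lay 9988 bp before the canonical end, soon after the stop codon, and had none of the 12 hexamers. No annotated transcript of MED28 ends there, so this peak counts as exonic and the gene's tallest transcript-end peak is the one of 34 reads. The 3 most distal ones lie inside FAM184B on the opposite strand. As many UTR peaks were found in 22 of the 12834 detected genes (0.171%), while the 305 detected genes with a UTR of at least 8000 bp had a median of 4 (quartiles 3 and 5). MED28 was picked out here after its values were seen.

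MED13 had the opposite pattern, with 25, 18 and 49 reads, and so did MED1, the subunit that nuclear receptors contact, with 14, 23 and 34 reads. Both the MED1 peak of 23 reads, at the end of a noncoding gene on the opposite strand, and that of 34 reads, inside the same gene, cannot be assigned to MED1 by the list. MED8 had 40 reads 801 bp before its canonical end and 25 reads (16.2 to 36.9) at the end itself. MED29 had 28 and 21 reads, MED4 had 34 and 26 reads, MED17 had 19 and 11 reads, MED6 had 19 and 16 reads, and MED13L had 19, 24 and 21 reads. In the 7 genes whose tallest peak was not the most distal, the intervals of these 2 peaks overlapped except in MED28.

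**Figure D2:**
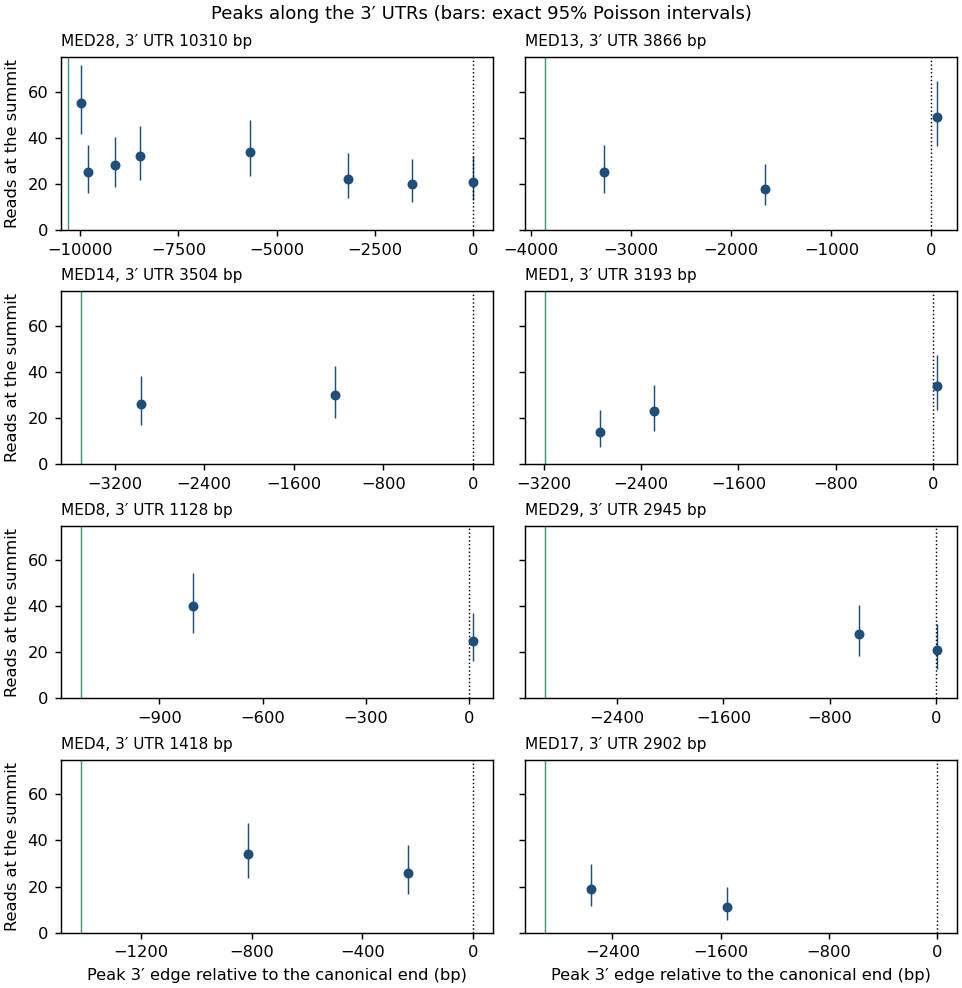
Reads at the summit of each peak in the canonical 3′ UTR of 8 Mediator genes against the distance in bp of its 3′ edge from the canonical end (dotted line; the green line is the stop codon, bars are exact 95% Poisson intervals). MED28 holds 8 peaks with the tallest, 55 reads, next to the stop codon, and MED13 and MED1 are tallest at the canonical end with 49 and 34 reads, the latter inside a noncoding gene of the opposite strand.

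Introns held 172 of the 284 peaks, 60.6% (54.8 to 66.1), and 58.9% of the peaks of all detected genes. Transcript ends held 64 peaks or 22.5% (18.1 to 27.7), against 21.9% over all detected genes, and exons held 27 or 9.51%, against 9.46%. The make-up of the Mediator peaks was therefore close to that of all genes. Intronic peaks were lower than those at transcript ends, with a median of 12 reads against 20 reads, and over all detected genes these medians were 12 and 19 reads. An intronic peak was present in 21 of the 30 genes (77.4% of detected genes with an intron). The 9 genes without one were MED8, MED10, MED11, MED12, MED18, MED19, MED20, MED28 and MED29.

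The intronic peaks were concentrated in a few large genes: MED13L had 39, MED12L 22, MED27 21 and MED13 20, together 102 of the 172. The next were MED15 with 13 and MED1 and MED23 with 8 each. The number followed gene length, with a Spearman rho of 0.90 over the 30 genes and 0.80 over 12541 detected genes with an intron, while the tallest transcript-end peak did not (rho −0.11 over the 30 genes). Genes share the libraries and the annotation, so these are descriptions. To take length into account, the detected genes were divided into 20 bins of gene length. Against the median of their bin, 13 Mediator genes had more intronic peaks, 9 fewer and 8 the same, and 37.6% of all detected genes with an intron had more. The 30 genes had 172 intronic peaks where their bin medians add up to 132, and over all detected genes with an intron the 72914 peaks were also above the sum of the bin medians, 67109. Pooled per kb of intron, without the bins of length, they had 0.112 peaks, against 0.0803 over all detected genes. By this measure the genes of RNA polymerase II subunits had 0.122 and those of general transcription factors 0.129. The super elongation complex genes had 0.0573 and the kinase-module partners 0.0839.

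MED13 stood furthest above the genes of its length. Its 20 intronic peaks compare with a bin median of 10 (quartiles 6 and 14), and 93.0% of the genes in its bin had fewer. MED4 had 7 (bin median 3, 89.5% with fewer) and MED1 had 8 (bin median 4, 87.9% with fewer). MED13L, with 39 against a bin median of 24, lay within the quartiles of its bin, 11 and 40. MED27 with 21 against 15 and MED15, the tail subunit that binds lipid-regulating activators, with 13 against 8 were above their bin medians. Below them were MED12L, with 22 against 24, and MED14, with 6 against 8.

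**Figure D3:**
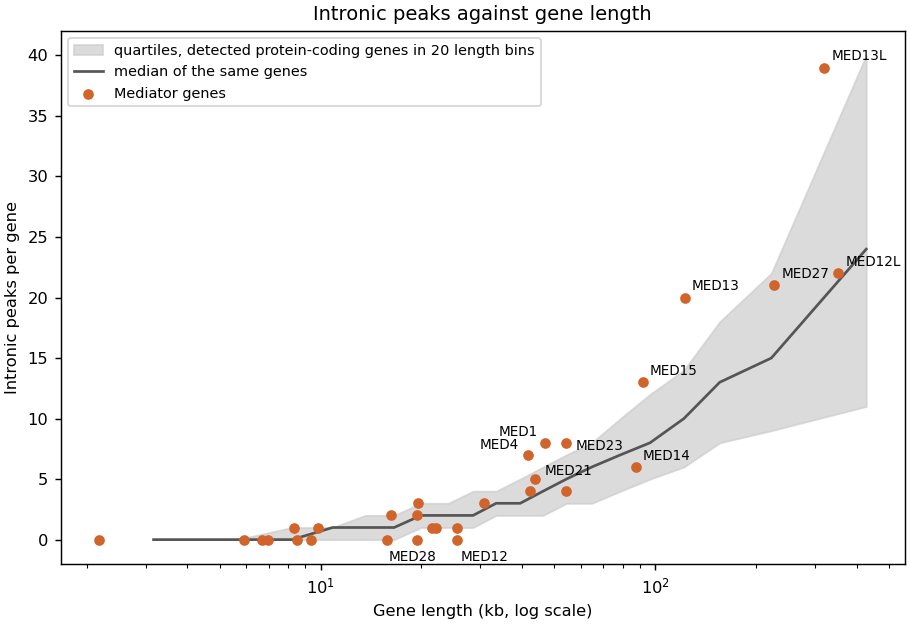
Number of intronic peaks per gene against gene length in kb (log scale) for the 30 Mediator genes (points), with the median (line) and quartiles (grey band) of detected protein-coding genes in 20 bins of length. Bin values are drawn at the median length of the bin, so MED13L, within the quartiles of its own bin of the longest genes, appears above the drawn band with 39 peaks. MED13 lies above the band with 20, and MED12 and MED28 have 0.

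The kinase-module paralogues differed from each other in both size and peaks. MED12, which activates CDK8 through cyclin C (ENSG00000184634.17, chromosome X, 71118543 to 71144103), is a compact gene of 25.6 kb with 44 introns in its canonical transcript, and had no intronic peak where its bin median was 2. The exons of its 54 annotated transcripts leave 8.22 kb as intron, and the bins match gene length, not intron length. MED12 had 4 transcript-end peaks of 12, 14, 29 and 15 reads in the direction of transcription, with the peak of 29 reads (19.4 to 41.6) at the canonical end. Those of 12 and 14 reads lay within the gene, after 24.8% and 92.5% of the coding bases, at ends of other annotated transcripts. The latter had no hexamer and up to 20 A among 25 bases downstream. MED12L (ENSG00000144893.13, chromosome 3, 151085286 to 151437072) has the same number of introns spread over 351.8 kb and had 22 intronic peaks, all low, of 7 to 14 reads. Of its 26 peaks, 11 lay inside other genes, among them receptor genes of the opposite strand within its introns, and its transcript-end peak of 25 reads (16.2 to 36.9) was also at the end of IGSF10 on that strand. Without peaks inside other genes MED12L had 14 intronic peaks and no transcript-end peak. The list thus gives no transcript-end peak that belongs to MED12L alone.

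MED13 had 32 peaks along 122.7 kb, and its tallest intronic peaks were near the start of the gene. Intron 2, with 4.62% of the coding bases upstream of it, had 4 peaks of 24, 56, 24 and 38 reads in the direction of transcription, and 3 of them had AATAAA. This intron has 9.23% of the intronic bases of the canonical transcript and 20% of its intronic peaks. The peak of 56 reads (42.3 to 72.7), at chromosome 17, 62057872 to 62058132, was as tall as any in a Mediator gene. A peak of 36 reads followed in an exon, with 6.44% of the coding bases upstream. Intron 9 had 3 peaks of 19, 21 and 23 reads, and within MED13 there was also a peak of 38 reads at the end of an unconfirmed gene model of the same strand (ENSG00000279133).

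MED13L (ENSG00000123066.9, chromosome 12, 115957905 to 116277693) had more intronic peaks than MED13, but they were lower, with a median of 11 reads (7 to 20) against 17 reads (7 to 56). Intron 2, which also follows 4.68% of the coding bases, held 21 of the 39 in 126.0 kb, or 53.8% of the peaks on 40.7% of the intronic bases. Intron 4 held 9 and intron 1 held 6. In MED12L, intron 16 alone held 12 of 22, or 54.5% on 46.0% of the intronic bases. MED27 (ENSG00000160563.14, chromosome 9, 131852928 to 132079867) is a small protein coded by a gene of 226.9 kb, and its intron 3 held 11 of 21 peaks, or 52.4% on 34.3% of the intronic bases. Of the 12 peaks in MED12L intron 16, however, 7 lay inside receptor genes of the opposite strand. Without peaks inside other genes the intron held 5 of 14, or 35.7%, which is below its share of the bases.

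**Figure D4:**
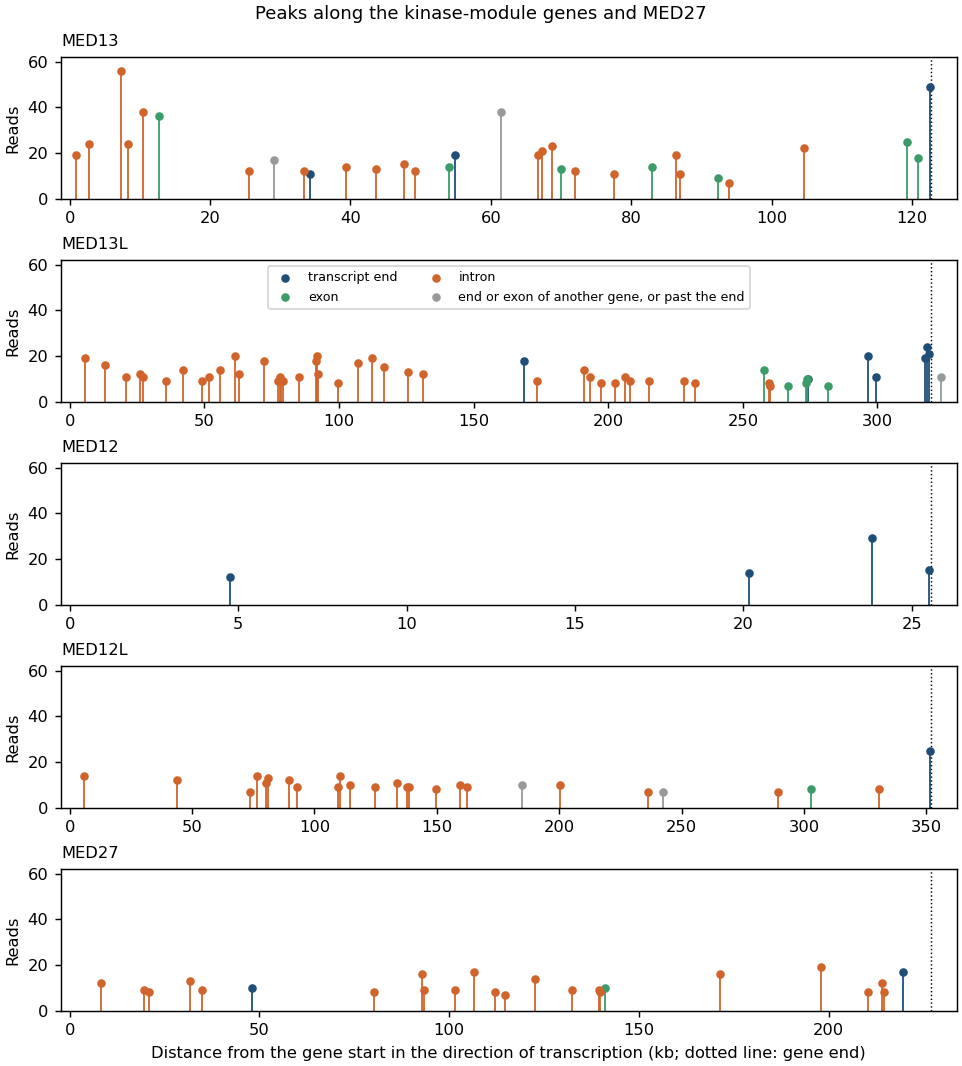
Reads at the summit of each peak against its distance from the gene start in kb for MED13, MED13L, MED12, MED12L and MED27, coloured by class; dotted lines mark the gene ends. The tall intronic peaks of MED13 (56 and 38 reads) stand in its first part, those of MED13L, MED12L and MED27 stay at or below 20 reads, and MED12 has none.

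Over all Mediator genes, 159 intronic peaks of 20 genes lay in numbered introns of the canonical transcript and 13 in introns of other transcripts. The first intron held 23 of the 159, 14.5% (9.84 to 20.8), with 12.9% of the intronic bases of these genes. The first 4 introns held 91, 57.2% (49.5 to 64.7), with 55.3% of the bases. Peaks were therefore spread close to the share of bases. The median peak followed 19.7% of the coding bases (quartiles 4.68% and 44.8%), 62 followed under 10% and 1 followed over 90%. These values pool the peaks of all genes, and MED13L weighs heavily in them. It had 21 peaks in intron 2, after 4.68% of its coding bases, and 9 in intron 4, after 7.22%. No value over all detected genes is given beside them.

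In 7 of the 21 genes with an intronic peak, the tallest intronic peak was at least as tall as the tallest transcript-end peak, and 35.6% of all detected genes with an intronic peak were of this kind. They were MED13 (56 against 49 reads), MED7 (47 against 19 reads), MED17 (28 against 19 reads), MED6 (27 against 25 reads), MED21 (26 against 26 reads), MED15 (23 against 19 reads) and MED27 (19 against 17 reads). In MED7 the intervals, 34.5 to 62.5 and 11.4 to 29.7, did not overlap, and in the other 6 they did. In MED13, MED17 and MED27 the peak lay in an intron of the canonical transcript, introns 2, 1 and 6. The MED17 peak, in a gene for a core head subunit, followed 12.8% of the coding bases.

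The remaining ones lay outside the canonical transcript. MED7 (chromosome 5, 157137424 to 157159019) had its 47 reads upstream of the canonical start, in an intron of a transcript annotated as incomplete, and the list gives no strand that would assign this peak. The peak of MED15, without a hexamer, was likewise upstream of the canonical start. The MED6 peak lay 1553 bp and the MED21 peak 3283 bp past the canonical end, within a longer transcript. On the scale of the deposited fold enrichment, which sets the height against the local background, the count of 7 became 3: MED7 (13.9 against 5.22), MED21 (7.35 against 5.83) and MED4 (12.1 against 9.49). MED13 was then no longer among them.

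Other intronic peaks of at least 20 reads, named after their values were seen, included those in intron 3 of MED31 (29 reads), intron 3 of MED30 (26 and 23 reads), intron 1 of MED26 (24 reads), introns 5 and 1 of MED4 (23 and 22 reads), intron 3 of MED17 (23 reads), intron 1 of MED1 (21 reads), intron 1 of MED9 (21 reads) and intron 10 of MED23 (20 reads). Some intronic peaks precede A-rich genomic sequence, where priming on genome-encoded A rather than on a tail is possible, and 2 of them, also chosen after their values were seen, are shown with the A in capitals. Each is the most A-rich run of 25 bases within 50 bp downstream of the 3′ edge.
MED4 intron 5, 23 reads, chr13:48080741-48080765, minus strand: AtgAAAAAtgtAAAAAAAAAAAAAg
MED1 intron 1, 21 reads, chr17:39449489-39449513, minus strand: AAAAAAAAttgAAAAtAAAtAAAAt
They hold 19 A each. The 3 peaks of MED13 intron 2 shown above have at most 12 or 13 A in any such run. The other peak of that intron, of 24 reads and without a hexamer, has up to 15 A. The part of priming in any of these peaks was not tested.

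Hexamers were looked for on the strand of the gene in the 100 bp up to the 3′ edge, and matches may overlap. The 12 searched were AATAAA itself, its variants at the second base, which are ATTAAA with the rarer AGTAAA or the rarer ACTAAA, and those at the first base, which are TATAAA with the forms CATAAA or also GATAAA. Variants at later bases were AAGAAA followed by AATGAA, then AATATA with the forms AATACA or also AATAGA. For 240 Mediator peaks with genes on 1 strand, 63.3% (57.1 to 69.2) had at least 1, against 63.7% over the same windows of all detected genes. The reverse strand of the same windows gave 40.0% (34.0 to 46.3) for the Mediator genes and 40.7% for all. At transcript ends 39 of 51 peaks had a hexamer, 76.5% (63.2 to 86.0), against 80.9% over all genes, and AATAAA itself was at 41.2% (28.8 to 54.8) against 49.3%. In introns 94 of 158 peaks had one, 59.5% (51.7 to 66.8), against 57.5%. AATAAA was at 32.9% of the intronic peaks (26.1 to 40.6), against 26.8% over all genes and 8.23% (4.87 to 13.6) on the reverse strand. The interval of each Mediator share at transcript ends and in introns included the share over all genes.

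At least 22 A among 25 bases followed 8 of the 158 intronic peaks, 5.06% (2.59 to 9.67), against 5.95% over all genes. At least 18 A followed 22.8% of them (16.9 to 29.9), against 29.1%, and 13.7% of the transcript-end peaks (6.81 to 25.7), against 7.15%. By gene, MED13L had 18 of 39 intronic peaks with a hexamer and 14 with at least 18 A, MED12L had 12 of 22 and 8, MED27 had 14 of 21 and 4, MED13 had 10 of 20 and 5, and MED1 had 1 of 8 and 3. These counts are small, and no test was made between the genes.

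**Figure D5:**
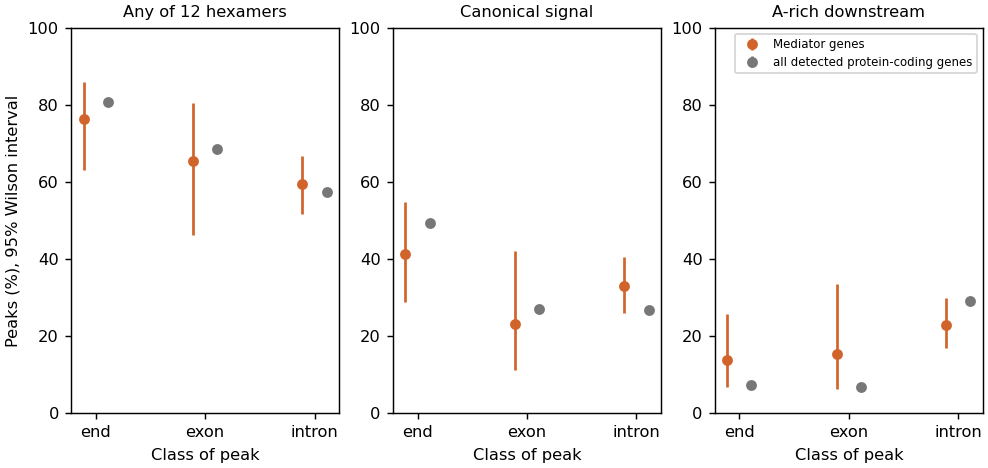
Share of peaks (%) at transcript ends, in exons and in introns that have any of the 12 hexamers, the canonical signal AATAAA, or at least 18 A in 25 bases downstream, for Mediator genes (orange) and all detected protein-coding genes (grey), with 95% Wilson intervals. Hexamers are at 76.5% of Mediator transcript-end peaks and 59.5% of intronic peaks, and the grey points lie inside the orange intervals for transcript ends and introns in the first and second panels.

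Past the last annotated end, 11 Mediator genes had 4000 bp free of other genes, and 2 of them had a peak more than 600 bp past it (19.1% of all such detected genes). MED10, a middle-module subunit, had peaks of 17 and 13 reads at 3138 and 3436 bp past its end, where the end itself had 39 reads (27.7 to 53.3). MED13L had 1 of 11 reads at 4701 bp past the end of its canonical transcript. These genes were detected at their own ends as well.

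The kinase-module partners were described in the same way. CDK8, the kinase, had 22 reads at its tallest transcript end and 14 intronic peaks where its bin median was 13. CDK19 had 32 reads and 16 intronic peaks (bin median 15), and CCNC, which codes for cyclin C, had 32 reads and 2 (bin median 2). They were thus close to other genes of their length. Among other genes of the transcription machinery, all 12 subunits of RNA polymerase II had a transcript-end peak, with a median of 41 reads (22 to 89), above the Mediator median of 27.5 reads. Of 8 general transcription factor genes 7 had one, with a median of 27 reads (16 to 51), and GTF2E2 had none. The 8 genes of the super elongation complex, with which MED26 makes contact, had a median of 21.5 reads (9 to 43), and 36 intronic peaks where their bin medians add up to 50. These lists overlap widely in their values, and no test was made between them.

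The cell type was checked with markers. All 8 genes of the sympathetic and neuroblastoma lineage had a transcript-end peak, of 19 to 76 reads, HAND2 with 71 reads among them. Of markers of other cell types, EPCAM had 7 reads and COL1A1 had 15 reads, and PTPRC, ALB and PECAM1 had no transcript-end peak.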

How the data were processed

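The Mediator genes and the other gene lists were chosen with earlier results of these data known. The study's methods state that reads were trimmed with bbduk, and that the authors mapped them to GRCh38 with STAR 2.5.1b (keeping reads with several placements), merged the samples and called peaks with MACS2 2.1.1, extending reads to 100 bp, without a control library. The versions are from the submitters' processing notes. The merged samples are not listed and were taken to be the 6 libraries. The study also removed peaks that had no hexamer and preceded a genomic A stretch. That filter was not applied here, and such peaks remain. An example is the peak in intron 16 of MED1, with 10 reads, no hexamer and 25 A among 25 bases downstream. The deposited list gives per peak a fold enrichment (a ratio of pileup to local background), the −log10 p-value and −log10 q-value of its summit, the summit offset, and a score that was not used. It pools all libraries, so depth per library is unknown and no test between groups was made.

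The pileup was solved from the deposited fold and −log10 p, taken as a Poisson upper tail. Values of −log10 p were matched to within 0.000172. The recovery, the class assignment and the hexamer search were checked on simulated data. Gene models were those of Gencode release 44. The study took an earlier release, and some peaks may have had another class under it. The class order was transcript end, exon, intron. A peak that lay at the end or in an exon of another gene only was counted apart. Intron numbers refer to the canonical transcript. A gene was called detected when it had a transcript-end peak with −log10 q of at least 5.

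Full values were given for genes chosen by rule: the 3 tallest and 3 lowest at transcript ends, the 5 with the most intronic peaks, those whose intronic peak reached the transcript-end peak, those with a peak past the end, the paralogue pairs of the kinase module and its partners. Other genes named with values were chosen after these were seen. Alternatives were other cutoffs on −log10 q, other transcript-end windows and sets of ends, leaving out peaks in other genes, fold enrichment in place of reads, and other hexamer and A-stretch rules. Coverage tracks of the libraries were not used here, and a few items are not reported here. Python 3.11.15, numpy 2.4.6, pandas 2.3.3, scipy 1.17.1 and matplotlib 3.10.9 were used.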

Additional observations from a re-analysis of the deposited data

How the results depend on the processing

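The cutoff had the largest effect. With −log10 q of at least 20, 30 of the 284 peaks were left, 10% of them in introns: 3 intronic peaks, in MED7, MED4 and MED13. Then 20 genes had a transcript-end peak, 1 gene had an intronic peak at least as tall as it, 0 genes had a peak past the end, 71.4% of peaks had a hexamer and 0 peaks had an A stretch of 22. Without a cutoff there were 376 peaks, and 250 or 66.5% of them were intronic. Counting intronic peaks with a hexamer alone left 100 of 172. On the scale of fold enrichment the median of the tallest transcript-end peaks was 11.5, and 3 genes had an intronic peak at least as tall as the transcript-end peak. AATAAA alone was at 33.3% of peaks, any hexamer within 100 bp before the summit at 32.9%, and at least 18 A followed 20%. Of 55 alternative values, 41 were within the interval of the share or height reported or within 1.5 times the count reported, a wide limit that includes the 20 genes and the 376 and 250 peaks above. Leaving out transcripts tagged as incomplete, an alternative chosen after seeing the data, gave 173 intronic peaks and 8 genes in place of 7. The added gene was MED16, with 14 intronic reads against 12 at its transcript end. Leaving out peaks in other genes took the transcript-end peak from MED7, MED12L, MED26 and MED31. No paired analysis was possible because reads of all 6 libraries were merged before peaks were called, and for the same reason no replicate could be left out. Low peaks rest on heights as low as 7, where reads with the same start and strand count once.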
